A study of Homo sapiens with 3 samples.

Results

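SAA1, SAA2, SAA4, LCN2, CHI3L1, SFTPD, ISM2 and ELF3 are 8 of the 36601 genes counted in a single-cell multiome pool of the human mesothelioma line NCI-H226. The 8 genes encode 7 secreted proteins and 1 transcription factor, and they were picked from earlier results of these same data, in which most of them were high in certain groups of cells. Their levels and their shared presence in cells are therefore given as a description with no test. The pool held the TEAD inhibitor-resistant line NCI-H226_CL3, raised as 1 clone under stepwise increases of inhibitor, and the sensitive NCI-H226 line it came from, each exposed to GNE7883, a small molecule against TEAD, or to DMSO as vehicle. Both lines lack NF2, the Hippo pathway tumour suppressor merlin. The cells carried hashtag antibodies, were pooled, permeabilised with digitonin and then profiled for RNA and open chromatin in the same droplets. The assignment of barcodes to lines and treatments is not used here, so nothing below compares CL3 with parental cells or GNE7883 with DMSO, and the pool counts as 1 sample. Intervals cover counting error only.

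Serum amyloid A proteins are small lipid-binding proteins of the acute-phase response: liver and inflamed epithelia make SAA1 and SAA2 on signals from IL1 and IL6, which act through NF-kB, C/EBP factors and STAT3, whereas SAA4 is made constitutively in liver. LCN2, a lipocalin that binds bacterial siderophores, and CHI3L1, a chitinase-like glycoprotein without chitinase activity, are secreted by inflamed epithelia and by myeloid cells. SFTPD, a collectin of innate defence, is made by alveolar and airway epithelium, ISM2 is a secreted protein of the isthmin family, and ELF3 is an epithelial ETS transcription factor.

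Promoter sequence was matched for 6 of the 8 genes (SAA4, LCN2, CHI3L1, SFTPD, ISM2 and ELF3) in RefSeq's GRCh38.p14 annotation. Shown are the 4 that both lie in peaks described below and hold such motif letters as are listed here. Each runs 5′ to 3′ on the gene's own strand, from 250 bases before the annotated start to 50 after it. They are LCN2 at chr9:128149203-128149502 (plus strand), CHI3L1 at chr1:203186655-203186954 (minus strand), SFTPD at chr10:79949056-79949355 (minus strand) and ELF3 at chr1:202010337-202010636 (plus strand). Capitals mark every match, on either strand, to an NF-kB-like motif (GGG, any 2 letters, T, any 2 letters, CC), an AP-1 motif (TGANTCA), a C/EBP-like motif (TTNNGNAA), a TEAD motif (GGAATG), an ETS motif (GGAAGT), a STAT-like motif (TTCNNNGAA) or a TATA box (TATAAA).
LCN2: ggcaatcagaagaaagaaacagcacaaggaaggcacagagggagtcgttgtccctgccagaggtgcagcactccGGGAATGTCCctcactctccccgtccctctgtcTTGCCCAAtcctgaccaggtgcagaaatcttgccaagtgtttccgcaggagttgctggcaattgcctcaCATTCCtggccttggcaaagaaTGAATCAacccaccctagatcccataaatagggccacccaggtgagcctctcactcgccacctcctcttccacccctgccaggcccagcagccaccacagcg
CHI3L1: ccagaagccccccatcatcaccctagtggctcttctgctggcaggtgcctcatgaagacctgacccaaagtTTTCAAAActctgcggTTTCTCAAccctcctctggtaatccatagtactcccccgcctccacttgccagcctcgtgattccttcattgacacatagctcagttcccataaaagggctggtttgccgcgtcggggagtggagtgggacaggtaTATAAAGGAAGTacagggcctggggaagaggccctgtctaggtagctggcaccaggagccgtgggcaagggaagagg
SFTPD: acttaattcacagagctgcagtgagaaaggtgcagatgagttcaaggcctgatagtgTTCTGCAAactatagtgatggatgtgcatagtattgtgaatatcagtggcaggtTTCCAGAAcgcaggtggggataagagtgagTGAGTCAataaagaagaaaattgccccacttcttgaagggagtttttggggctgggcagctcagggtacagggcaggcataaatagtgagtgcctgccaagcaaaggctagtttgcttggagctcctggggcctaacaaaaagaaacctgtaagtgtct
ELF3: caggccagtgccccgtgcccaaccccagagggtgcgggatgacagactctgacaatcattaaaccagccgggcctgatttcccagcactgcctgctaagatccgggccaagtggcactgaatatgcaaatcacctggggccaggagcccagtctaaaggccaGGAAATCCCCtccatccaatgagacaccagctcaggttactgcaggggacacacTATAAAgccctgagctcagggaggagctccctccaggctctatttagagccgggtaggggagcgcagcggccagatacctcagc
LCN2 held the NF-kB-like match GGGAATGTCC at bases 75 to 84, which overlaps a TEAD match (GGAATG) at bases 76 to 81. It also held a second TEAD match on the minus strand at bases 177 to 182, a C/EBP-like match on the minus strand at bases 108 to 115 and an AP-1 match at bases 199 to 205. CHI3L1 held a TATA box at bases 224 to 229 with an ETS match right after it, and 2 C/EBP-like matches. In SFTPD there were an AP-1 match at bases 142 to 148 and 2 C/EBP-like matches. ELF3 held an NF-kB-like match on the minus strand at bases 163 to 172 and a TATA box at bases 217 to 222. Of the 2 promoters not shown, SAA4's held 6 C/EBP-like matches and ISM2's none of these letters. Such short motifs are common: among 35116 RefSeq promoters of the same length, 36.8% held a C/EBP-like match, 22.8% an ETS match, 22.0% an NF-kB-like match, 14.0% a TEAD match, 11.5% a TATA box, 7.71% an AP-1 match and 7.66% a STAT-like match. A match is a string of letters in this window, not a bound site.

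Cells were barcodes with 1000 or more unique molecular identifiers (UMIs) and 1000 or more peak counts, of whose UMIs no more than 20% came from mitochondrially encoded (MT) genes. Of 651860 barcodes, 8913 passed, with 16588148 UMIs and a median of 1524 UMIs (range 1000 to 13064) and 4034 peak counts per cell. Calretinin (CALB2) at 771 UMIs per 1000000 (CPM), mesothelin (MSLN) at 79.0 CPM and WT1 at 68.4 CPM marked the cells as mesothelial, as their cell type label has it. The epithelial list, set against a tissue label of lung epithelium, reached 1830 CPM almost wholly through KRT7 (1826 CPM), a keratin that mesothelial cells also make, with EPCAM at 0.241 CPM, CDH1 at 0.784 CPM and CLDN7 at 0. The doublet caller Scrublet marked 0 cells and so did not work on these barcodes.

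The 8 genes together gave 13150 UMIs, and 4966 of the 8913 cells held at least 1 of them. UMI counts are not scaled to transcript length, so the order of the levels below is an order of counts.

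SAA1 was the most counted of the 8 and the most uneven. Its 7762 UMIs made 468 CPM (95% interval 458 to 478), rank 231 of all genes, and 3491 cells (39.2%) held at least 1. Most of those cells held exactly 1 UMI (2181 cells), while 95 held 10 or more, 30 held 20 or more and the richest cell held 106. The 89 cells with most SAA1, 1% of all, carried 23.8% of its UMIs.

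SAA2, its near-identical neighbour on chromosome 11, gave 1996 UMIs at 120 CPM (115 to 126). It was seen in 1324 cells (14.9%), with up to 29 UMIs in 1 cell. The pair's coding sequences are so alike that reads can be split between them by the counting, and both counts are uncertain for that reason. SAA2 made 20.3% of the pair's UMIs (18.8 to 21.9) in the 127 cells with 10 or more of them, against 20.5% (19.6 to 21.5) in the 3891 cells with 1 to 9, so the ratio of the 2 genes was alike in rich and poor cells. SAA4, the constitutive family member, had 139 UMIs at 8.38 CPM (7.04 to 9.89) and never more than 2 UMIs in a cell.

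Among the other secreted proteins SFTPD stood highest, with 1216 UMIs at 73.3 CPM (69.2 to 77.5), in 840 cells (9.42%) and with up to 14 UMIs in 1 cell. CHI3L1 followed at 51.8 CPM (48.4 to 55.4) in 671 cells (7.53%). ISM2 had 33.0 CPM (30.3 to 35.9) in 485 cells (5.44%), with at most 3 UMIs in a cell. LCN2 had 25.6 CPM (23.2 to 28.1) in fewer cells, 345 (3.87%), but up to 13 UMIs in 1 cell. The transcription factor ELF3 gave 205 UMIs, 12.4 CPM (10.7 to 14.2), in 191 cells (2.14%). No neighbours in this order of levels overlapped in their intervals.

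Most markers of the cell types best known for these proteins were at or near 0. The 7 alveolar type 2 markers summed to 13.7 CPM, of which ABCA3 gave 12.5 CPM on 208 UMIs. SFTPC, SFTPA1 and SFTPA2 were at 0 and SFTPB at 1 UMI, in the same cells that gave 1216 UMIs of SFTPD. Over the 6 hepatocyte markers the sum was 8.08 CPM, with ALB, APOB, TTR and FGB at 0 and APOA1 at 7.05 CPM. The 6 neutrophil markers summed to 1.27 CPM, with MPO, CSF3R and FCGR3B at 0, and the 6 macrophage markers to 8.92 CPM, with C1QA at 0. CD68 gave 7.35 CPM of the macrophage sum. A count of 0 here allows up to 3 UMIs in all cells together.

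Of 19 other acute-phase genes found in the file, 9 were at 0, among them CRP, ORM1, ORM2, SERPINA3, LBP, HAMP and the 3 fibrinogen chains FGA, FGB and FGG. Only 4 of the 19 reached 20 CPM, including complement factor B (CFB) at 360 CPM. In the list of 24 airway and alveolar secretory genes, 1 reached 20 CPM: SLPI, a secreted protease inhibitor, at 2872 CPM. Among the inducers IL1B stood at 28.3 CPM, LIF at 20.6 CPM, IL6 at 3.38 CPM and IL1A at 2.71 CPM. STAT3 was at 150 CPM and CEBPB at 115 CPM, while HNF4A, a hepatocyte factor, was at 0.

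Free RNA, the UMIs of 412160 barcodes with at most 100 UMIs and at most 100 peak counts each, held the same transcripts. SAA1 stood lower in cells, at 468 CPM in cells and 844 CPM in free RNA, a ratio of 0.554 (0.512 to 0.601). It was the only one of the 6 genes compared to be at least 1.5-fold lower in cells, a call made for 9.29% of 6910 genes compared. The other intervals below 1 were those of SAA2, at 120 CPM in cells and 172 CPM in free RNA (ratio 0.700, 0.588 to 0.839), and of CHI3L1, at 51.8 CPM in cells and 77.1 CPM in free RNA (0.673, 0.518 to 0.887). The CHI3L1 direction turned when free RNA was taken up to 500 UMIs per barcode.

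The intervals of LCN2 (ratio 0.698, 0.479 to 1.05), SFTPD (0.841, 0.659 to 1.09) and ISM2 (1.09, 0.724 to 1.72) held 1. SAA4 (8.38 CPM in cells, 6.32 CPM in free RNA) and ELF3 (12.4 CPM in cells, 13.9 CPM in free RNA) stayed under the 20 CPM required of a compared gene, on 5 and 11 UMIs in free RNA. Over all compared genes the median log2 ratio of cells to free RNA was 0.35. For none of the 8 did the level in cells exceed that in free RNA beyond the interval. No cell type known to lack these transcripts was in the pool, so the part of free RNA in the cells with 1 UMI was not tested.

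**Figure D1:**
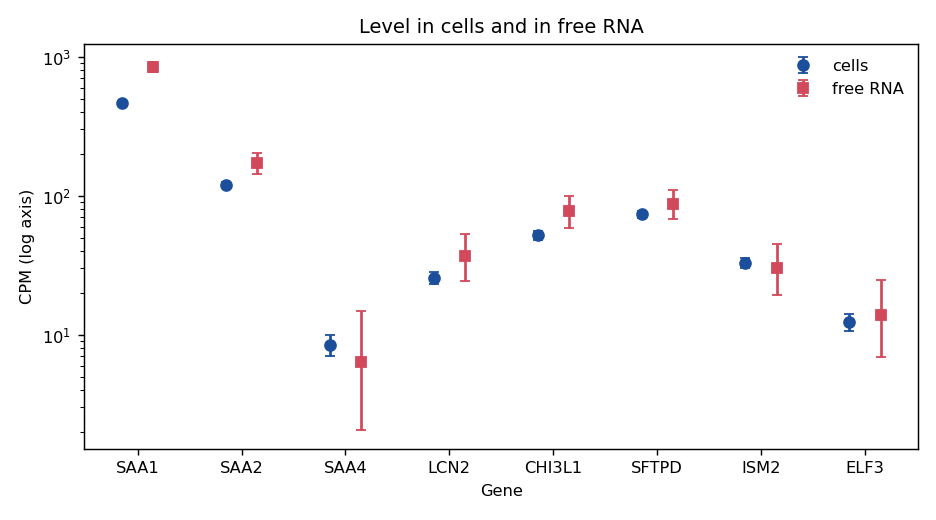
Level of each gene in CPM (log axis) in cells, drawn left, and in free RNA, drawn right, with 95% counting intervals. SAA1 stands apart at 468 in cells and 844 in free RNA, and for ISM2, SFTPD and LCN2 the ratio of the 2 levels has an interval that holds 1.

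UMIs that followed only the depth of each cell would have a Poisson spread. The dispersion index, which is 1 for such a spread at each cell's depth, was 7.11 for SAA1, 2.53 for SAA2, 1.88 for SFTPD, 1.52 for CHI3L1 and 1.52 for LCN2. ISM2 (1.18) and ELF3 (1.11) were closer to 1, and SAA4 (1.03) was near it. For all but SAA4 the index lay above that of at least 98.3% of genes of like level. In cells with at most 10% MT UMIs, 4 genes in place of 7 lay above the 95th percentile of genes of like level. Genes of SAA1's level had a median of 1.13, and SAA1 exceeded all 221 of them. How evenly free RNA entered the droplets was not measured, so its part in the index was not tested.

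Levels of SFTPD, CHI3L1 and SAA1 rose with the mitochondrial share of the cell. SFTPD had 53.2 CPM in the 1523 cells with 5 to 10% MT UMIs, 63.0 CPM at 10 to 15% and 90.9 CPM at 15 to 20%, and 99.5 CPM in the 2217 barcodes over 20%, which were left out of the cells. CHI3L1 had 37.0, 48.7, 60.4 and 72.4 CPM over the same 4 bins, and SAA1 had 418, 448, 507 and 594 CPM. SAA2 had 127, 117, 121 and 142 CPM and LCN2 25.5, 21.8, 29.6 and 35.4 CPM, with no such steady course. ISM2 differed less, at 29.3, 33.7, 33.8 and 33.8 CPM. These CPM are divided by all UMIs, MT UMIs included. Over UMIs outside MT genes, ISM2 rose in each next bin, at 32.0, 38.6, 40.8 and 44.6 CPM. On that scale LCN2 had 27.8, 25.0, 35.7 and 46.7 CPM and SAA2 139, 135, 147 and 187 CPM. The contrast of these genes with SFTPD, CHI3L1 and SAA1 thus depends in part on the scaling. By depth, SAA1 stood at 523, 468 and 447 CPM in 3 groups of cells of equal size, from the shallowest to the deepest. The part of RNA quality in the results below was not tested.

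The genes were found together in the same cells more often than their single shares give. To compare cells at equal depth, each was thinned at random to 1000 UMIs, after which SAA1 was seen in 2517 cells (28.2%), SAA2 in 902, SFTPD in 549, CHI3L1 in 411, ISM2 in 285, LCN2 in 214, ELF3 in 111 and SAA4 in 75. In 18 of the 28 pairs, the interval of observed over expected cells lay above 1, and in 0 pairs below it. By gene, the count was 6 of 7 for SAA1 (1.52% of its pairs with all 10305 other genes of 100 or more UMIs were above 1), 6 for SAA2 (1.61%), 4 for SAA4 (1.12%) and 5 for LCN2 (1.42%). It was 6 for CHI3L1 (1.92%), 2 for SFTPD (1.52%), 5 for ISM2 (1.55%) and 2 for ELF3 (1.31%). All 10 pairs among SAA1, SAA2, SAA4, LCN2 and CHI3L1 were among the 18. Another random thinning put 13 pairs above 1, with 9 of those 10 among them, and cells of at least 2000 UMIs also 13, with 7 of the 10. SAA1 and LCN2 met in 128 cells against 60.4 expected, a ratio of 2.12 (1.77 to 2.52), and SAA1 and SAA2 in 453 against 254.7 (1.78, 1.62 to 1.95). Reads of SAA1 and SAA2 can be split between the pair by the counting. The part of this in their shared cells, here and below, was not tested.

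LCN2 and CHI3L1 shared 27 cells against 9.87 expected (2.74, 1.80 to 3.98). The highest ratio, 5.00 for SAA4 with LCN2, rested on 9 cells against 1.80 expected (2.29 to 9.49).

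SFTPD did not follow SAA1 or SAA2. With SAA4 it shared 8 cells against 4.62 expected (1.73, 0.748 to 3.41), too few to tell. It met SAA1 in 172 cells against 155 expected (1.11, 0.95 to 1.29), SAA2 in 58 against 55.6 (1.04, 0.793 to 1.35) and LCN2 in 9 against 13.2 (0.683, 0.312 to 1.30). With CHI3L1 (38 cells, 1.5, 1.06 to 2.06) and with ISM2 (28 cells, 1.60, 1.06 to 2.31) its ratio was above 1. ISM2 met every gene but SAA4 and ELF3 with an interval above 1. ELF3 had such an interval only with SAA1 (1.47, 1.07 to 1.96) and SAA2 (1.78, 1.09 to 2.75), on 46 and 20 shared cells.

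Cells with several of the 8 transcripts were likewise in excess. At 1000 UMIs, 182 cells held 3 of the genes against 77.5 if the genes were independent, 29 held 4 against 4.30, and 7 held 5 against 0.132. Cells that held exactly 1 were fewer, 2751 against 3327. In the 1592 cells with at most 10% MT UMIs, 4 pairs in place of 18 had an interval above 1, 3 of them among the 10.

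**Figure D2:**
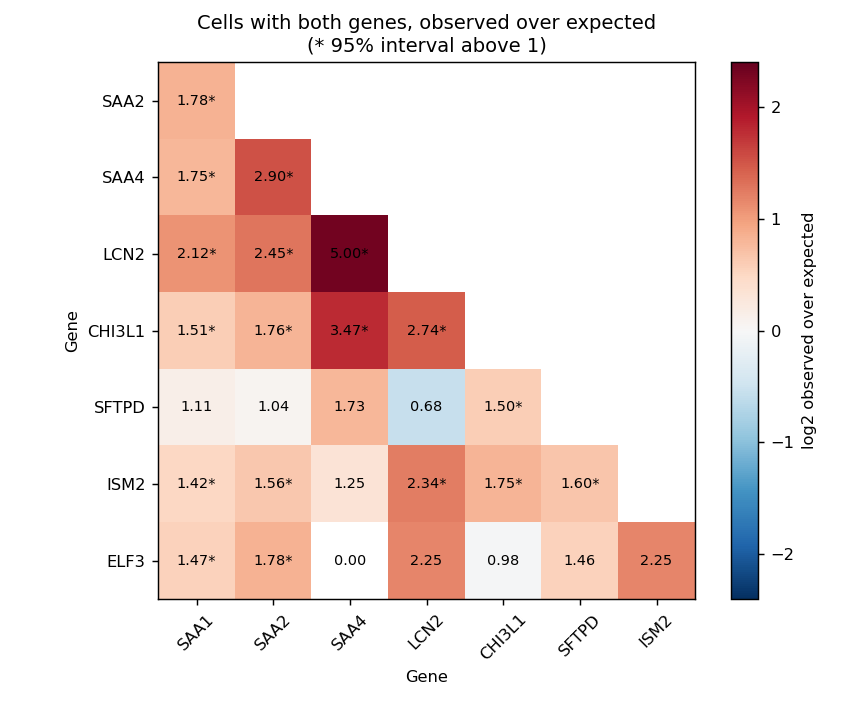
Cells holding both genes of a pair over the number expected from their shares, after thinning to 1000 UMIs, with the ratio in each square, the log2 ratio as colour and an asterisk where the 95% interval lies above 1. All 10 pairs among the serum amyloids, LCN2 and CHI3L1 carry an asterisk, as do those of ISM2 with SAA1, SAA2, LCN2, CHI3L1 and SFTPD. SFTPD's ratios with SAA1 (1.11), SAA2 (1.04) and LCN2 (0.68) carry none.

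Cells were also grouped by their SAA1 count, and SAA2, SAA4, LCN2, CHI3L1 and ELF3 stood higher in each next class. LCN2 had 11.9 CPM in the 6396 cells with 0 SAA1 UMIs in 1000, 29.6 CPM at 1, 83.0 CPM at 2 to 4, 240 CPM at 5 to 9 and 942 CPM (710 to 1226) in the 25 cells with 10 or more. SAA2 ran over the same classes from 62.4 CPM to 3032 CPM, and ELF3 from 9.70 CPM to 154 CPM (70.5 to 293). CHI3L1 stood at 38.1, 61.3, 134, 257 and 274 CPM, with little difference between the last 2 classes. ISM2 stood at 26.1, 42.4, 58.0 and 183 CPM in the first 4 and at 85.7 CPM (27.8 to 200) on 5 UMIs in the last.

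SFTPD stood at 72.1 CPM (67.4 to 77.0) at 0, 73.7 CPM at 1, 79.4 CPM at 2 to 4 and 120 CPM (74.2 to 183) at 5 to 9. At 10 or more it was at 51.4 CPM (10.6 to 150) on 3 UMIs, too few to give a direction. Its rise over the first 4 classes was small beside that of LCN2, from 11.9 CPM to 240 CPM.

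**Figure D3:**
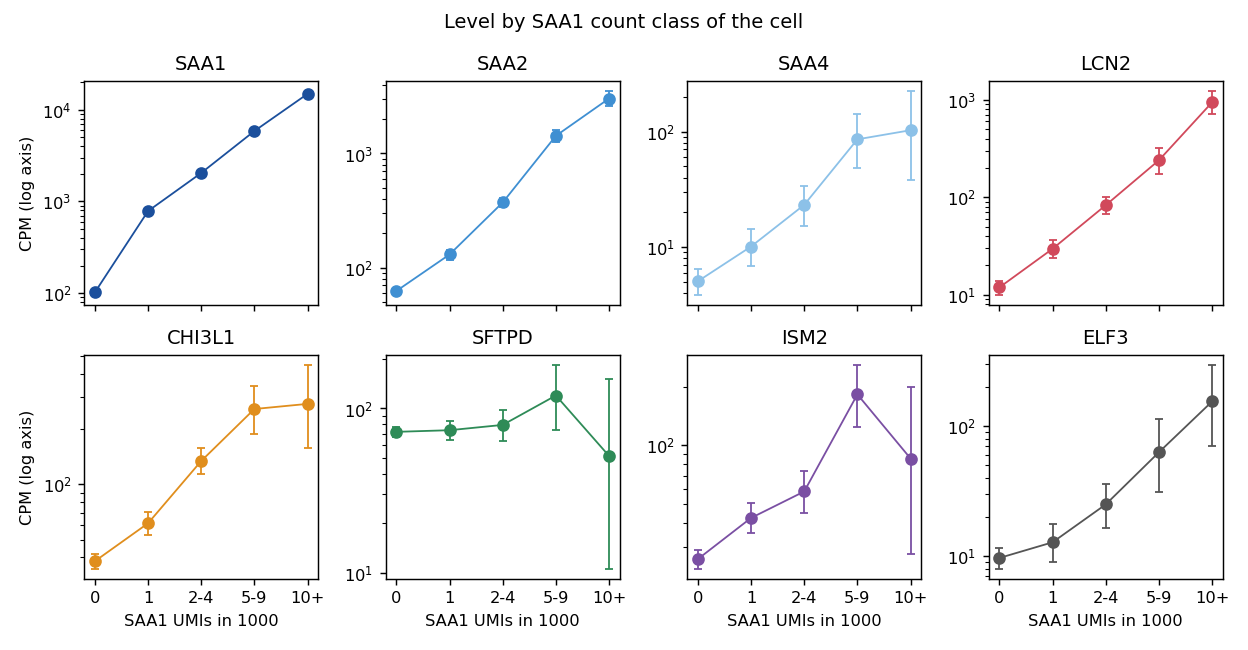
Level of each gene in CPM (log axes) in cells grouped by their SAA1 UMIs among 1000, with 95% counting intervals. All UMIs of the cells were counted, so SAA1 itself is above 0 in the first class. LCN2 runs from 11.9 to 942. SFTPD runs from 72.1 at 0 to 120 at 5 to 9, with 51.4 on 3 UMIs in the last class.

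Cells with at least 1 UMI of a gene among 1000 were set against cells without it, over all genes of enough counts. Of the 49 values of one of the 8 genes in a split by another that could be compared, 36 were at least 2-fold higher in the cells with the splitting gene with an interval above 1, and the median ratio was 2.61 (range 0.730 to 6.04). In the cells with at most 10% MT UMIs, 7 values were called. By split, the count was 4 of 5 for SAA1 (0.119% of all genes compared were called), 5 of 7 for SAA2 (0.162%), 4 of 7 for SAA4 (1.55%) and 6 of 7 for LCN2 (1.34%). It was 5 of 6 for CHI3L1 (0.574%), 1 of 5 for SFTPD (0.191%), 6 of 6 for ISM2 (0.813%) and 5 of 6 for ELF3 (1.8%). In the ELF3 split LCN2 was called on 15 UMIs and CHI3L1 on 28 in the cells with ELF3. After thinning, CHI3L1 and ELF3 had met in 5 cells against 5.12 expected (0.977, 0.317 to 2.28). SAA4 (8.38 CPM over all cells) and ELF3 (12.4 CPM) were compared only where the higher side of a split reached 20 CPM. SAA4 was thus compared in 3 splits and called in 3, and ELF3 was compared in 4 and called in 3. The counts therefore favour splits in which SAA4 and ELF3 were high. With at least 10 UMIs and no CPM floor, 38 of all 56 values were called.

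The steepest of these values was SAA1 in the LCN2 split, at 2542 CPM in the 214 cells with LCN2 and 421 CPM in the 8699 without (6.04-fold, 5.64 to 6.47). LCN2 was at 64.3 CPM in cells with SAA1 and 11.9 CPM in cells without (5.4-fold, 4.41 to 6.65). In the ISM2 split, SFTPD was at 166 CPM in cells with ISM2 and 70.2 CPM in cells without (2.36-fold, 1.89 to 2.93), the only split in which SFTPD was called.

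SFTPD-bearing cells differed little in SAA1, at 526 CPM in cells with SFTPD and 464 CPM in cells without (1.13-fold, 1.04 to 1.24). SAA2 was at 149 CPM with SFTPD and 118 CPM without (1.26-fold, 1.06 to 1.48). Another random thinning turned both directions. SAA4, too low to be compared, stood at 1.74-fold (0.927 to 3.04) on 14 UMIs in cells with SFTPD. LCN2 was at 19.0 CPM with SFTPD and 26.0 CPM without (0.730, 0.435 to 1.16), whereas ISM2 was at 75.9 CPM with SFTPD and 30.3 CPM without (2.51-fold, 1.94 to 3.20). UMI depth and MT share were close in the LCN2 split: cells with LCN2 had a median of 1489 UMIs and 14.4% MT UMIs, and cells without it 1525 UMIs and 13.9%. Cells with SAA1 had 1425 UMIs and 13.8%, against 1569 UMIs and 13.9% in cells without. Median peak counts differed more, at 4832 in cells with ISM2 and 4022 in cells without, at 4589 with ELF3 and 4032 without, and at 3668 with SAA1 and 4202 without.

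For each split the 3 genes outside the 8 with the largest ratio were named by rule. PI3, which encodes the elastase inhibitor elafin, was among them in 6 of the 8 splits. It was at 822 CPM in cells with LCN2 and 119 CPM in cells without (6.91-fold, 6.11 to 7.81), at 301 CPM with SAA1 and 75.8 CPM without (3.97-fold, 3.65 to 4.32), and at 3.25-fold to 5.24-fold in the SAA2, SAA4, CHI3L1 and ISM2 splits. CXCL1, a neutrophil-attracting chemokine, was 6.35-fold higher with LCN2 (22 UMIs, 3.86 to 9.96), 3.80-fold with SAA2 and 3.22-fold with CHI3L1. Its relative CXCL8 was at 50.9 CPM in cells with SAA1 and 24.3 CPM in cells without (2.09-fold, 1.75 to 2.50).

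CYP17A1, a steroid hydroxylase of adrenal and gonad, was the gene with the largest ratio in the SFTPD split. It stood at 47.9 CPM in cells with SFTPD and 12.2 CPM in cells without (3.93-fold, 2.80 to 5.42). It was also 4.24-fold higher with LCN2, 2.78-fold with SAA2 and 2.36-fold with SAA1, where the direction turned in cells with at most 10% MT UMIs (log2 ratio -0.14). OLR1, a scavenger receptor for oxidised LDL, had the largest ratio in the ISM2 split, at 131 CPM with ISM2 and 35.0 CPM without (3.74-fold, 2.88 to 4.80).

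The remaining named genes rested on few UMIs in the cells with the splitting gene: VNN1 and METTL4 for SAA4 (7 and 8 UMIs), ZBED6CL for CHI3L1 (20), RHOU and UBXN8 for SFTPD (22 each), ARHGAP44 for ISM2 (11), and IFT122, ZNF266 and TIE1 for ELF3 (9, 6 and 7). TIE1 turned direction under another thinning.

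In the lists of related genes, few members were called at least 2-fold higher, and 0 were called at least 2-fold lower, a call that needs an interval without 1. CFB was called in 4 splits: 796 CPM in cells with CHI3L1 and 340 CPM in cells without (2.34-fold, 2.15 to 2.55), 2.28-fold with SAA4, 2.26-fold with ISM2 and 2.17-fold with LCN2. It was the 1 gene called of the 4 compared among other acute-phase proteins. In the remaining splits CFB was also higher, below 2-fold with an interval above 1. It stood at 1.65-fold (1.56 to 1.74) with SAA1, 1.76-fold (1.64 to 1.89) with SAA2, 1.80-fold (1.65 to 1.95) with SFTPD and 1.84-fold (1.54 to 2.17) with ELF3. IL1R1, the IL1 receptor, was the 1 called of 8 compared inducers and receptors in the ISM2 (2.32-fold), LCN2 (2.28-fold) and ELF3 (2.27-fold) splits. With SAA2 (1.85-fold, 1.52 to 2.24), CHI3L1 (1.81-fold, 1.38 to 2.34) and SAA1 (1.64-fold, 1.42 to 1.90) IL1R1 was below 2-fold with an interval above 1. In the SAA4 split (1.88, 0.997 to 3.23) and the SFTPD split (0.959, 0.699 to 1.29) its interval held 1.

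Of the NF-kB and acute-phase factors, NFKBIZ, a nuclear member of the IkB family, was 1 called of 10 compared with ISM2 (2.29-fold, 1.55 to 3.26), and TNFAIP3, a feedback inhibitor of NF-kB, 1 of 11 with SAA4 on 7 UMIs (2.82-fold, 1.12 to 5.89). MUC16, a mucin of mesothelium, was called with LCN2 (2.36-fold) and CHI3L1 (2.10-fold). MUC16 (15.4 CPM over all cells) and TNFAIP3 (17.7 CPM) were compared only where the higher side of a split reached 20 CPM. Among epithelial transcription factors, 0 of 2 compared were called in any split, and among receptors and partners of the 8 proteins 0 of 4 or 5.

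Mesothelial markers were called singly, KRT5 with SAA1 (2.01-fold), LRRN4 with SAA4 (2.27-fold, on 10 UMIs) and ITLN1 with CHI3L1 (2.37-fold), each of 7 compared. KRT5 (15.9 CPM over all cells) and ITLN1 (14.3 CPM) were likewise compared only where the higher side of a split reached 20 CPM. Their summed level was 1644 CPM in cells with LCN2 and 1306 CPM in cells without, and 1488 CPM with SAA1 and 1253 CPM without. No alveolar type 2, hepatocyte, neutrophil or macrophage marker reached the UMI number and the 20 CPM required for a comparison. The alveolar type 2 sum was 5.99 CPM in cells with SFTPD and 14.2 CPM in cells without, on few UMIs and with no interval made. Of that list's 228 UMIs in all cells, 208 were those of ABCA3.

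Grouping the cells by their open chromatin gave 5 clusters of at least 100 cells (5347, 1780, 785, 631 and 291 cells). RNA did not draw these clusters, but the genes were chosen from an earlier grouping of this kind, so their levels here are a description. Cluster 1 had the highest level of each of the 8 genes. SFTPD was at 107 CPM in cluster 1 and 36.1 CPM in all other cells (2.95-fold, 2.58 to 3.39), CHI3L1 at 78.6 and 21.9 CPM (3.59-fold, 3.03 to 4.26), ISM2 at 47.2 and 17.2 CPM (2.74-fold, 2.25 to 3.36) and LCN2 at 35.6 and 14.4 CPM (2.47-fold, 1.98 to 3.09). These 4 were called of 6 compared, where 0.176% of genes compared were called.

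SAA1 and SAA2 had another pattern: SAA1 was at 591 CPM (1.79-fold, 1.71 to 1.88) in cluster 1 but also at 576 CPM in cluster 3, where CHI3L1 was at 21.9 CPM. At least 2-fold lower were 5 of the 6 in cluster 2 (0.633% of genes called), 1 in cluster 3 (1.24%), 4 in cluster 4 (2.1%) and all 6 in cluster 5 (1.67%). ISM2 had the widest range, at 2.54 CPM on 2 UMIs in cluster 5, against 34.6 CPM in all other cells. Cluster 1 was shallower than the others, with a median of 1389 UMIs, against 1699 to 2431 in clusters 2 to 5. Other weightings of the peak counts and a finer resolution gave other clusters, in which the highest SFTPD level ran from 103 to 246 CPM.

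**Figure D4:**
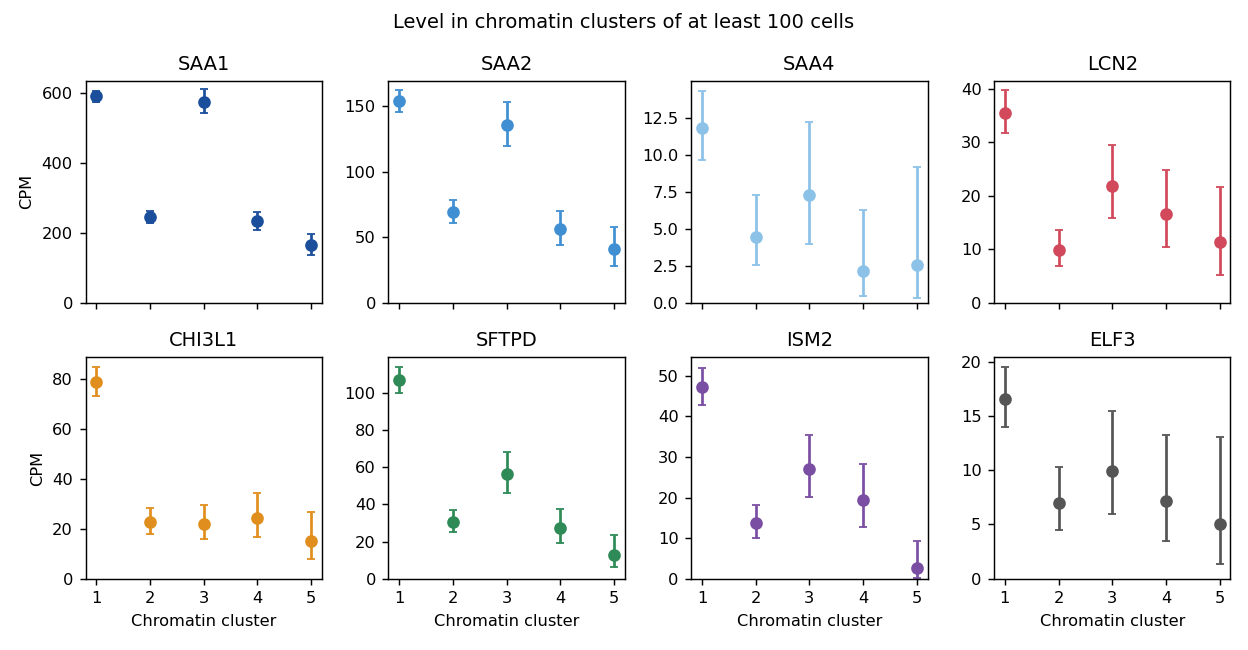
Level of each gene in CPM in the 5 chromatin clusters of at least 100 cells, with 95% counting intervals. All 8 genes are highest in cluster 1, and SAA1 and SAA2 are nearly as high in cluster 3.

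In the accessibility library, 82 distinct peaks lay within 50 kb of the 8 gene starts, on the coordinates of GRCh38, and 9 of them overlapped a gene's interval of annotated starts. The peak over the upstream ELF3 start (chr1:202007782-202008684) was open in 6.66% of cells, the CHI3L1 start peak (chr1:203186515-203187435) in 5.00% and the SFTPD start peak (chr10:79948936-79949850) in 4.38%. The ELF3 promoter printed above lies in another start peak (chr1:202010241-202010718), open in 2.13% of cells. The start peaks of LCN2 (chr9:128148836-128149722) and ISM2 were open in 2.51% and 1.42%. SAA1 and SAA2, the genes with most UMIs, had start peaks in 0.909% (0.722 to 1.13) and 0.841% (0.662 to 1.05) of cells, and no peak covered the SAA4 start. The most open peak near any of the genes was 10157 bases past the LCN2 start (chr9:128159675-128160555), in 11.8% of cells, above 99.5% of all peaks.

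The same split of cells, with a gene's transcript or without it, was applied to its peaks. A peak was called at 1.5-fold with an interval that excluded 1, counted in events (pairs of counts). There were 5 calls of higher accessibility and 0 of lower. Another random thinning gave 3 calls and cells with at most 10% MT UMIs gave 0. The CHI3L1 start peak, which holds the whole promoter printed above, had 44 events in cells with CHI3L1 and 435 in cells without, a scaled ratio of 2.00 (1.43 to 2.74). It was 1 call among 13 peaks tested, where 2.27% of all peaks were called.

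The SAA2 start peak (chr11:18248410-18249263) was 2.57-fold higher (1.38 to 4.51) on 16 events in cells with SAA2 and 60 in cells without, and a peak 4343 bases on was 2.09-fold higher, 2 calls of 10 peaks (1.86% of all peaks). In the SAA1 split the same SAA2 start peak was the 1 call of 12 (1.69-fold, 1.58% of all peaks), while SAA1's own start peak had a ratio of 1.15 (0.674 to 1.89). For ISM2 1 of 7 peaks was called (1.94% of all peaks), 30816 bases from the start, on 7 events in cells with ISM2 and 59 in cells without. No peak was called for SFTPD (0 of 5, 2.24% of all peaks), LCN2 (0 of 9, 1.79%), ELF3 (0 of 15, 1.51%) or SAA4 (0 of 11, 1.63%). The LCN2 start peak had a ratio of 2.02 (0.995 to 3.69) on 11 events in cells with LCN2, and the SFTPD start peak 1.26 (0.856 to 1.80).

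Summed over the window, accessibility was higher in cells with the transcript for SAA2 (1.48-fold, 1.19 to 1.82), CHI3L1 (1.21-fold, 1.03 to 1.41) and SFTPD (1.22-fold, 1.00 to 1.47). The sums include peaks with too few events to be tested. For SAA2, 1 of these (chr11:18237446-18238104) gave 12 of the 104 events in cells with SAA2 and 12 of the 676 in cells without. In cells with at most 10% MT UMIs the SAA2 and SFTPD directions turned, to log2 ratios of -0.15 and -0.16. For the other 5 genes the interval held 1. For SAA4 no difference was detectable at this depth, with 11 events in the 75 cells that held it. SAA1, SAA2 and SAA4 lie next to each other, so their windows share peaks.

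**Figure D5:**
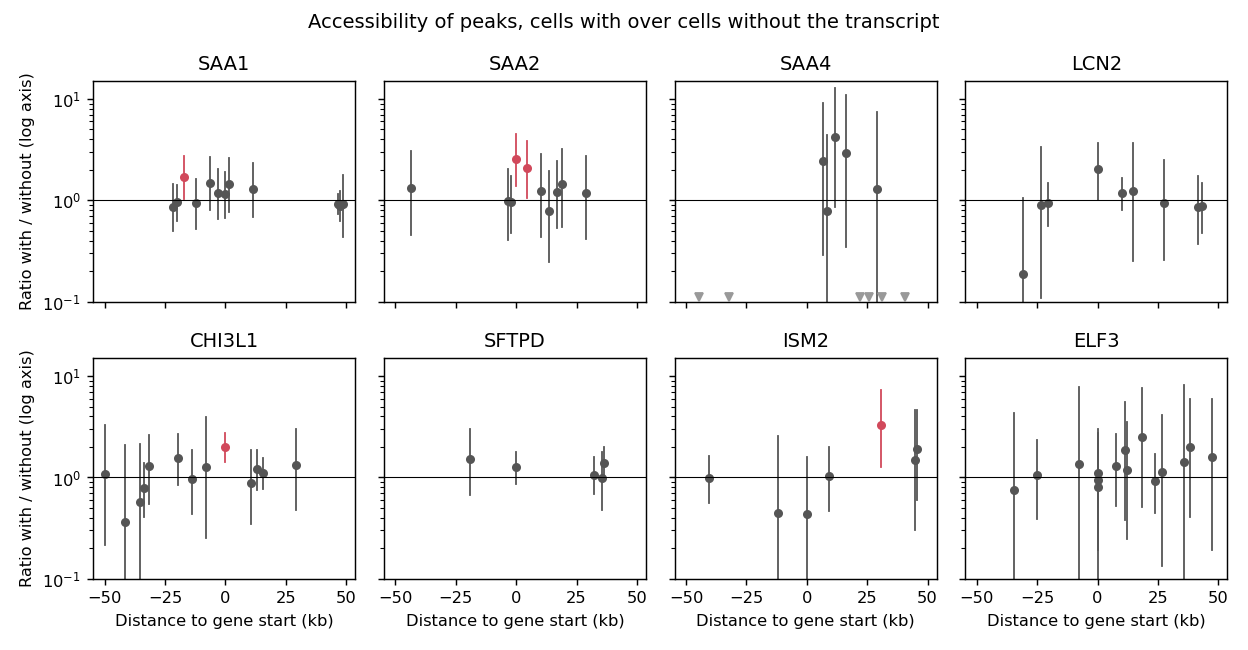
Accessibility of each tested peak within 50 kb in cells with the gene's transcript over cells without it (log axis), against its distance along the chromosome from the gene start in kb, with 95% counting intervals; called peaks are red and triangles mark peaks with 0 events in cells with the transcript. The CHI3L1 peak at distance 0 has a ratio of 2.00 and the SAA2 one 2.57.

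Across chromatin clusters the start peaks are a description only, since peaks drew the clusters. The SFTPD start peak was 1.52-fold higher in cluster 1 than in other cells (1.24 to 1.86), 1.74-fold higher in cluster 3 (1.33 to 2.25) and 0.292 times as open in cluster 2 (0.195 to 0.424), where SFTPD RNA was at 30.4 CPM. In cluster 3 the RNA did not follow the peak, at 56.2 CPM in cluster 3 and 75.5 CPM in all other cells (0.744, 0.605 to 0.907). The CHI3L1 start peak was 0.640 times as open in cluster 2 (0.488 to 0.827). SAA1's start peak was 2.07-fold higher in cluster 3 (1.12 to 3.62), and in cluster 4 the SAA1 and SAA2 start peaks had 1 event each. Of 63 window peaks tested, those called in either direction numbered 6 in cluster 1 (9.27% of all peaks), 17 in cluster 2 (18.7%), 15 in cluster 3 (10.6%), 7 in cluster 4 (15.9%) and 7 in cluster 5 (7.41%).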

How the data were processed

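The deposited matrix holds whole-number counts, UMIs per gene and counts per peak, for every barcode of 1 pool. The submitters' processing notes name MACS2, ArchR 1.0.3, the build GRCh38.p10 and Cell Ranger ARC 2.0.0, with no role given. The 8 genes and the lists of related genes were chosen with earlier results of these data known. With 1 pooled sample no test was made: UMIs were summed over cells, divided by all UMIs (CPM) and given with exact Poisson, Clopper-Pearson or conditional binomial 95% intervals. A gene entered a comparison with 100 or more UMIs in both sums together and 20 CPM in the higher one, and was called at 2-fold. Peaks needed at least 50 events, an event being 2 counts, since 87.9% of peak entries were even, and were called at 1.5-fold. All genes of the lists were counted and those past 2-fold named, with the 3 largest ratios of each split. The value of 1 marker is not reported here. Clusters came from peaks in at least 20 cells (weighted counts, 30 components, 15 neighbours, Leiden resolution 0.5). The split was tested on simulated data. Python 3.11.15, scipy 1.17.1, scanpy 1.11.5 and leidenalg 0.10.2 were used. Alternatives were other cell filters, scalings, thinnings, windows and definitions of free RNA.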

Additional observations from a re-analysis of the deposited data

How the results depend on the processing

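No paired analysis was possible because the pool is 1 sample. The summed level of the 8 genes, 793 CPM, was 819 in 22107 cells of at least 500 UMIs, 751 in 2307 cells of at least 2000, 695 in the 1592 cells with at most 10% MT UMIs, 810 without the highest Scrublet scores and 922 over UMIs outside MT genes. Its log2 ratio of cells to free RNA, -0.68, was -0.87 at 10% MT and -0.54 with free RNA up to 500 UMIs, where CHI3L1 turned to 0.29. At 10% MT, genes of wide spread numbered 4 (from 7), pairs above 1 numbered 4 (from 18), values at least 2-fold higher 7 (from 36) and called peaks 0 (from 5), with fewer cells. Called peaks numbered 2 at 2000 UMIs, 9 when the split used all UMIs, 3 with another thinning and 3 within 10 kb. The windows held 24 peaks at 10 kb and 156 at 100 kb. Log2 ratios that turned at 10% MT were CYP17A1 in the SAA1 split (-0.14), ELF3 in the SAA2 split (-0.44), CHI3L1 in the SFTPD split (-0.041), SAA1 in the ELF3 split (-0.40) and the SAA2 (-0.15) and SFTPD (-0.16) windows. With another thinning they were SAA1 (-0.026) and SAA2 (-0.16) in the SFTPD split and TIE1 in the ELF3 split (-0.70). The cause was not tested. Of the alternative values of single genes in these splits, 546 stayed within the reported value's counting interval and 146 left it. At 10% MT the chromatin gave 1 cluster, so that value is missing. Free RNA up to 500 UMIs, the other cell filters for the spread, scaling by UMIs outside MT genes in clusters and 3 other weightings of the peaks were chosen after seeing the data. Depth limits SAA4 and ELF3 most, with 139 and 205 UMIs.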
